A study of Mus musculus with 6 samples.

Results

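RIKEN-named transcripts are rows of the liver count table whose symbol ends in Rik. A row was taken when it had a CPM of 1 or more (its count relative to the sum of all counted reads of the library) as a mean over the 6 libraries. Of 2941 rows with such a symbol among 56674 rows in all, 307 met this level, and 1526 had no read in any library. The rows were chosen by their mean level over all 6 libraries, so abundance is a description here. The rule does not use the difference between the diets, but the rows were proposed with results of these data known. Near the limit, a row can also pass through the group in which it is high. 6230400D17Rik had means of 0.638 CPM in control and 1.31 CPM in PB-MP, scaled as described below. B430212C06Rik had 1.87 and 0.457 CPM. The rows just above the limit were 6230400D17Rik, 4933431K14Rik and 9130230N09Rik, at means of 1.001, 1.002 and 1.005 CPM. Just below it lay 2810002D19Rik, A930037H05Rik and 9330133O14Rik, at 0.994, 0.989 and 0.986 CPM. All 307 rows also had enough reads to be tested.

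Livers came from male mice of the inbred strain C57BL/6, kept for 71 weeks. The control group received normal chow (3 libraries) and the other group chow that contained PB-MP, a polypropylene black microplastic (3 libraries). Nothing in the labels ties each library to its own mouse, and p-values here measure only the spread among these samples, which may be technical. No dose, particle size or start of feeding is given in the labels.

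A symbol ending in Rik is a placeholder. It records the full-length mouse cDNA clone, sequenced by the RIKEN institute, from which the transcript was first known, and it is replaced once a gene is given a functional name. Such rows therefore gather transcripts that have stayed without a name: long noncoding RNAs, which are transcribed by RNA polymerase II, often spliced and polyadenylated, and frequently retained in the nucleus, along with protein-coding genes of little studied function. Many long noncoding RNAs start next to, or run antisense to, a coding gene. In liver they are usually far less abundant than the mRNAs of secreted proteins and enzymes.

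Of the 307 rows, 126 were listed as protein coding and 181 (59.0%) were not, by the GENCODE M21 annotation or, for names absent there, by RefSeq. The group of 181 is called noncoding below. It held 59 processed transcripts, 42 lincRNAs (labelled intergenic, though some overlapped another gene), 41 antisense transcripts and 16 lncRNAs at bidirectional promoters. There were also 9 pseudogenes, 6 unreviewed loci awaiting experimental support (TEC), 2 sense intronic transcripts and 6 rows absent from GENCODE. Of the 6 absent rows, 2 were in neither reference. The 2 references disagreed on 6 rows, of which 5 were coding in GENCODE only and 1 in RefSeq only. The coding rows held most of the reads. In control, the summed level was 2217 ± 127 CPM for coding rows and 978.8 ± 37.4 CPM for noncoding rows (SD, n = 3), with libraries scaled by the trimmed mean of M-values (TMM), as for all CPM from here on.

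The libraries held 68357478 to 112566641 counted reads, so that 3 reads, the limit that a count of 0 allows, corresponded to 0.0285 to 0.0495 CPM (counting error only). Some facts of the libraries ran along with the diet. Messenger RNAs of the mitochondrial genome took 14.2% to 15.1% of the reads in control and 8.73% to 10.1% in PB-MP. Between 23095 and 23872 rows had a read in control, against 24865 to 25133 in PB-MP. The liver label matched the data, with the 8 hepatocyte markers summing to 58980 to 86900 CPM of unscaled reads in every library. Ribosomal Rn18s took 11.2% of the reads in control replicate 2, against 1.15% and 2.92% in the other controls. In PB-MP replicates 1, 2 and 3 it took 3.61%, 9.42% and 0.707%. PB-MP replicate 3 held the highest level of more tested rows (22.1%) than any other library. Counts are therefore also given without control replicate 2 and PB-MP replicate 3. PB-MP replicate 2, also high in Rn18s, was kept in that fit.

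Noncoding RIKEN-named transcripts stood higher in PB-MP livers as a group. No single row passed in edgeR or limma-voom, whereas DESeq2 called 20 of them higher and 0 lower. Of the 181 noncoding rows, 148 (81.8%) had a log2 fold change (PB-MP over control) above 0, against 50.6% of all 17871 rows tested and 47.2% of the 12558 rows tested at 1 CPM or more. Their median log2 fold change was 0.41, with quartiles of 0.10 and 0.83, against 0.01 for all rows tested. In 61 of the 181 (33.7%) every PB-MP library lay above every control library, and in 2 (1.10%) every PB-MP library lay below. Over all rows tested these shares were 11.4% and 8.49%, and over those at 1 CPM or more 9.36% and 8.87%. Of the 126 coding rows, 75 (59.5%) lay above 0 at a median of 0.08, with 21 (16.7%) entirely higher and 9 (7.14%) entirely lower. The classes also differed in level, with medians of 2.38 CPM for noncoding and 7.51 CPM for coding rows. At 1 to 2 CPM they were close, with 85.0% of noncoding and 83.3% of coding rows above 0. At that level 32.5% and 29.2% were entirely higher, at 2 to 5 CPM 37.5% and 17.4%, and at 5 CPM or more 29.7% and 12.7%. Rows at 1 to 2 CPM can have met the limit through 1 group alone, which holds for other rows at 1 CPM or more as well. The difference between the classes was not tested. Taking both classes, 223 of 307 rows lay above 0 at a median of 0.25, with 82 rows entirely higher and 11 entirely lower. A log2 fold change above 1 was found for 44 of the 307 rows, and for 8.7% of all rows tested and 4.24% of those at 1 CPM or more. The rows share the same 6 libraries and were proposed with results of these data known. These counts therefore describe the rows and carry no test of the group.

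**Figure D1:**
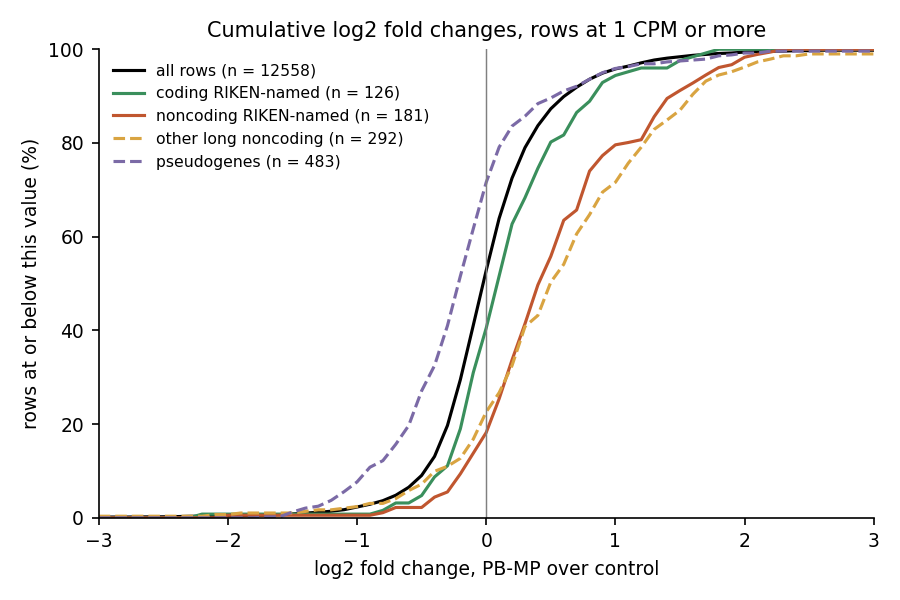
Cumulative share of rows (y axis, %) at or below each log2 fold change of PB-MP over control (x axis), for RIKEN-named rows by class and for other rows at 1 CPM or more. The noncoding RIKEN-named curve lies to the right of the curve of all rows, as does that of other long noncoding rows, and the pseudogene curve lies to the left.

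Single rows passed or missed the threshold depending on the tool. Of the 307 rows, 0 reached an adjusted p below 0.05 with the edgeR quasi-likelihood test and Benjamini-Hochberg adjustment over all rows, as was so for 0% of all rows tested, and limma-voom called 0 as well. At an unadjusted p below 0.05 there were 65 rows higher and 5 lower. The background shares were 7.35% and 4.74% of all rows tested, and 6.14% and 5.18% of those at 1 CPM or more, against 21.2% and 1.63% of the RIKEN-named rows. In the noncoding class the counts were 50 higher and 1 lower, in the coding class 15 and 4. DESeq2, run on the same counts, called 25 of the 307 rows higher and 1 lower at an adjusted p below 0.05, where it called 1.72% of all rows higher and 0.719% lower. Of those 25, 20 were noncoding. The median half-width of the 95% interval of a log2 fold change was 0.73 for noncoding rows, so differences of the size of their median were not detectable for a single row.

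The noncoding median kept its direction with each library left out in turn, and its size moved. It ran from 0.32 without PB-MP replicate 3 to 0.52 without PB-MP replicate 2, and between 131 and 153 of the 181 rows lay above 0. With control replicate 2 and PB-MP replicate 3 both left out it was 0.37, with 132 of 180 rows above 0. The coding median was -0.03 without PB-MP replicate 3. The 65 rows at an unadjusted p below 0.05 and higher became 39 when control replicate 3 was left out, 40 for control replicate 1 and 43 for PB-MP replicate 1, and 109 with library size as the only scaling. The 5 lower rows became 12 without PB-MP replicate 3, 10 without control replicate 2, 8 without PB-MP replicate 2 and 26 with the first 2 both left out. They became 3 without each of control replicate 1, control replicate 3 and PB-MP replicate 1, 16 in limma-voom with quality weights and 2 with library size only. In the noncoding class, the 50 higher rows became 29 without control replicate 1, 29 without control replicate 3, 32 without PB-MP replicate 3 and 33 without PB-MP replicate 1. They became 81 with library size only, and the 1 lower row became 5 without PB-MP replicate 3, 7 with quality weights and 10 with control replicate 2 and PB-MP replicate 3 both left out. The 11 rows that were entirely lower became 38 without control replicate 2, 38 without PB-MP replicate 3 and 19 without PB-MP replicate 2, and 70 without the first 2 together, when 128 rows were entirely higher. Groups of fewer libraries overlap less often for any row. With library size as the only scaling the median of all rows tested moved from 0.01 to 0.23, and the noncoding median lay 0.42 above it, as against 0.41 with TMM.

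Level by library showed where the noncoding rows were high. Taking each row relative to its own control mean, the median noncoding row stood at -0.02, 0.13 and -0.07 log2 CPM in control replicates 1, 2 and 3. It stood at 0.37, 0.26 and 0.61 in PB-MP replicates 1, 2 and 3. PB-MP replicate 3 held the highest level of 84 of the 181 rows (46.4%) and PB-MP replicate 1 that of 48. PB-MP replicate 2 held that of 15 rows (8.29%), close to the 9 to 14 rows of each control library. The coding rows had medians of 0.06, -0.01 and 0.19 in the PB-MP libraries.

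**Figure D2:**
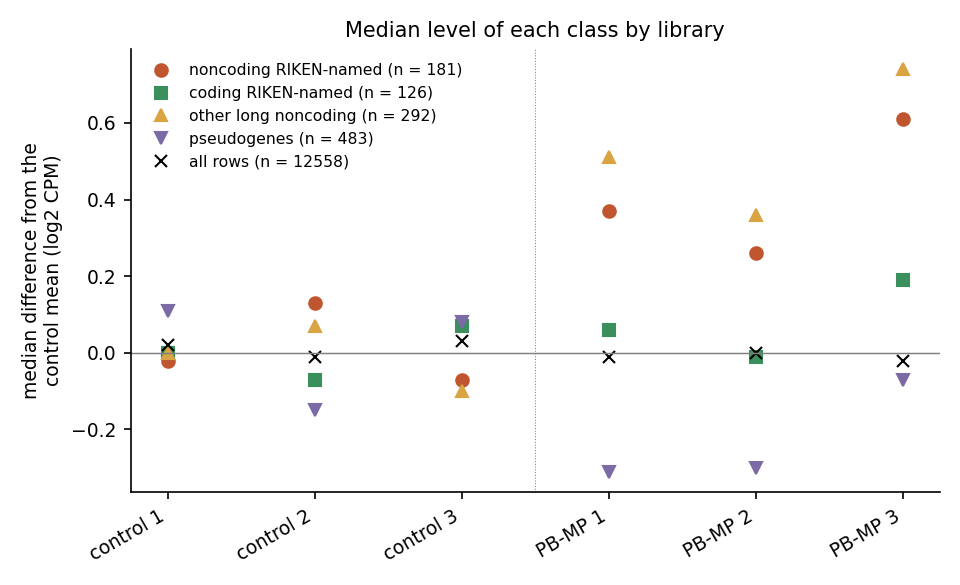
Median difference of each class of rows from its control mean (y axis, log2 CPM) in the 3 control and 3 PB-MP libraries (x axis), one symbol per class. Noncoding RIKEN-named rows stand at 0.26 to 0.61 in PB-MP, above their 3 control values, and coding RIKEN-named rows at -0.01 to 0.19.

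Summed over its rows, the noncoding class reached 940.5, 980.6 and 1015 CPM in the control libraries and 1239, 1117 and 1468 CPM in those of PB-MP. All PB-MP sums were above all control sums, with means of 978.8 ± 37.4 and 1275 ± 178 CPM (SD, n = 3 each). As a share of all counted reads, without scaling, this was 0.0907% ± 0.00397 in control and 0.138% ± 0.0209 in PB-MP. The coding class summed to 2217 ± 127 CPM in control and 2111 ± 21.2 CPM in PB-MP, and its libraries overlapped. Without scaling the coding share of reads was 0.206% ± 0.0170 in control and 0.228% ± 0.0101 in PB-MP. The sum of the coding class was thus lower in PB-MP with TMM scaling and higher without it, while its median log2 fold change was above 0 with either.

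**Figure D3:**
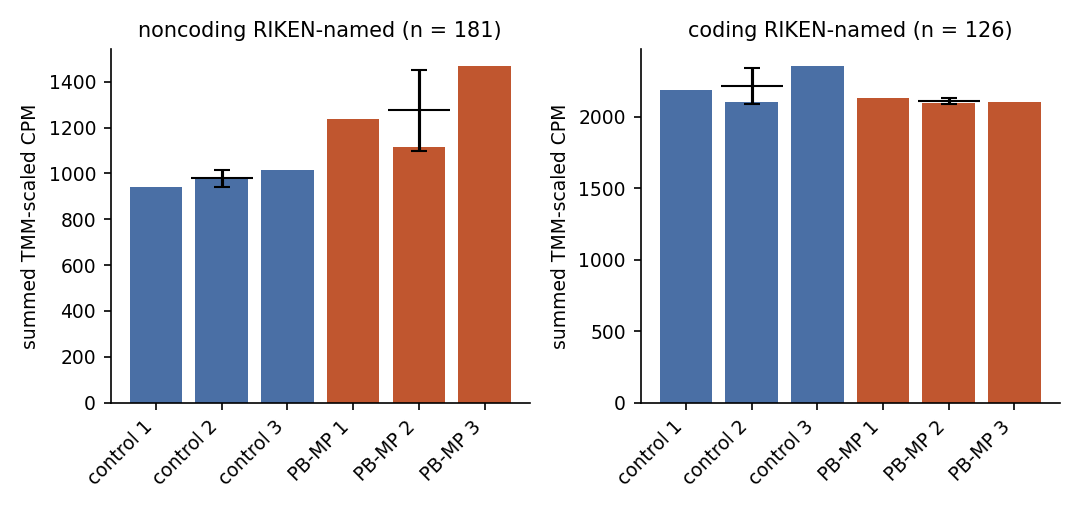
Summed TMM-scaled CPM (y axis, from 0) of noncoding and coding RIKEN-named rows in each library (bars), with the mean and SD of each group in black. Noncoding rows sum to 940.5 to 1015 CPM in control and 1117 to 1468 CPM in PB-MP.

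Among noncoding rows, 1810019D21Rik had both the smallest p and the largest log2 fold change. It is a spliced transcript whose exons overlap those of Esrp2, an epithelial splicing regulator, on the opposite strand. Its level was 19.8, 19.9 and 15.2 CPM in control replicates 1, 2 and 3, and 88.5, 60.0 and 120 CPM in PB-MP. The PB-MP libraries were thus all above the control libraries, with a log2 fold change of 2.29 ± 0.28 (SE) and an adjusted p of 0.207 by edgeR. DESeq2 gave an adjusted p of 1.59e-09. Esrp2 itself had a log2 fold change of 0.36. The neighbours of this row and of the next 3 were chosen after their values were seen.

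The next row by p, 2900005J15Rik, starts next to Prkag2, which encodes a regulatory subunit of AMP-activated protein kinase, and is read away from it. Its level was 1.69, 1.58 and 1.28 CPM in the control libraries and 5.54, 3.65 and 5.88 CPM in the PB-MP libraries (log2 fold change 1.73 ± 0.28). D030055H07Rik, antisense to the glycerate kinase gene Glyctk, had 1.28, 1.17 and 0.960 CPM in control and 4.86, 3.74 and 2.86 CPM in PB-MP (1.75 ± 0.29). 4930581F22Rik, opposite to the sialyltransferase gene St3gal4 and the mRNA decapping scavenger gene Dcps, had 1.41, 1.77 and 0.770 CPM in control and 5.62, 4.89 and 7.14 CPM in PB-MP (2.16 ± 0.36). The groups were apart in all 3 rows, and the log2 fold changes of their coding neighbours were smaller, at 0.36 for Prkag2, -0.03 for Glyctk, -0.18 for St3gal4 and 0.16 for Dcps. Whether reads were counted by strand is not given in the sources used here, so reads of opposite overlapping exons cannot be told apart.

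The other 4 of these 8 rows are given without a known role. 2900052L18Rik had 2.84, 1.75 and 1.66 CPM in control and 10.5, 5.61 and 9.64 CPM in PB-MP. 4632404H12Rik, listed as a lincRNA, starts next to Ube2q1 and is read away from it. This row had 2.70, 2.76 and 2.29 CPM in control and 7.0, 7.71 and 5.27 CPM in PB-MP, and Ube2q1 had a log2 fold change of -0.17. The single-exon locus 9430064I24Rik had 5.58, 7.54 and 4.70 CPM in control and 17.1, 16.9 and 12.8 CPM in PB-MP. Its exon overlaps exons of Hsd3b7, Gm49388 and Setd1a on the opposite strand, so shared reads cannot be told apart here either. Hsd3b7 had an unscaled mean of 389 CPM, against 11.2 CPM for the locus. The log2 fold changes of these neighbours were 0.25, 0.17 and 1.24 ± 1.56 in that order. 2810410L24Rik had 4.21, 3.10 and 2.64 CPM in control and 9.60, 7.45 and 11.2 CPM in PB-MP. In each of them the lowest PB-MP library exceeded the highest control library. Their log2 fold changes were 2.04 ± 0.34, 1.37 ± 0.23, 1.39 ± 0.25 and 1.5 ± 0.27 in that order, all at an edgeR adjusted p of 0.207, and all 4 passed in DESeq2.

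**Figure D4:**
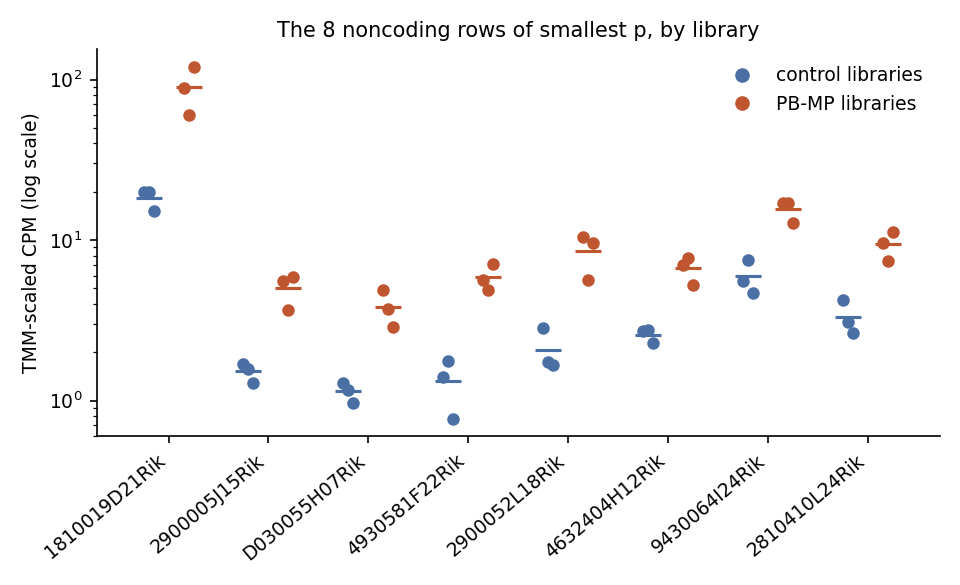
TMM-scaled CPM (y axis, log scale) of the 8 noncoding RIKEN-named rows of smallest p, each point 1 library and each bar a group mean. The PB-MP points of every row lie above its control points, from 15.2 to 19.9 against 60.0 to 120 CPM for 1810019D21Rik.

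Promoter sequences are shown for the first 4 of these rows that the RefSeq table of promoters holds, to set them beside the noncoding row of smallest p in the other direction (C230062I16Rik) and the coding row of smallest p that was higher (6430550D23Rik). Each run covers 250 bases before to 50 bases after the annotated start on GRCm38.p6, 5′ to 3′ on the strand of the transcript. The deposited counts name GRCm39, so these coordinates belong to the sequence table alone. Capitals mark matches to 6 motifs on either strand, which may overlap. The core promoter box of TFIID was searched as TATAAA. The box bound by NF-Y was searched as CCAAT. The GC box of Sp1 family factors was searched as GGGCGG. The E-box of basic helix-loop-helix factors was searched as CACGTG. The cAMP response element was searched as TGACGTCA. The core of ETS family sites was searched as CCGGAAG. The runs lie at chr8:106135150-106135449, plus strand (1810019D21Rik), at chr5:25100725-25101024, plus strand (2900005J15Rik), at chr9:106147721-106148020, plus strand (D030055H07Rik), at chr9:35116478-35116777, plus strand (4930581F22Rik), at chr7:29951803-29952102, plus strand (C230062I16Rik) and at chr2:156007928-156008227, minus strand (6430550D23Rik).
1810019D21Rik: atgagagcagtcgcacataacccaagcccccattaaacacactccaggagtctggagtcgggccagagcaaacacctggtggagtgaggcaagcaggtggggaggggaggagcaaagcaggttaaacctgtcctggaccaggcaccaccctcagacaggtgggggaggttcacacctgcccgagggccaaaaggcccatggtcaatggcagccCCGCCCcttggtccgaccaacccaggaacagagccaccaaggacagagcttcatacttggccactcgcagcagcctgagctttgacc
2900005J15Rik: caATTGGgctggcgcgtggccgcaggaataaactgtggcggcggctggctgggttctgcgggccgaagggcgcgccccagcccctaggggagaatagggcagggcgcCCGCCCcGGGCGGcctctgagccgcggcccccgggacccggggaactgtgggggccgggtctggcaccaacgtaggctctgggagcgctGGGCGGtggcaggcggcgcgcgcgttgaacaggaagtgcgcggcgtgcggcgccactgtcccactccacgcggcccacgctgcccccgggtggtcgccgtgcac
D030055H07Rik: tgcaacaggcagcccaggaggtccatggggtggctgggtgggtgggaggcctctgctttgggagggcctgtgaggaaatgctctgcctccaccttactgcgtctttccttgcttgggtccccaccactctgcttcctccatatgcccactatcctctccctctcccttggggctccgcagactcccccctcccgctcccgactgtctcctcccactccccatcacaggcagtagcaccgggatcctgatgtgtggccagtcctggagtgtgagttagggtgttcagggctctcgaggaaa
4930581F22Rik: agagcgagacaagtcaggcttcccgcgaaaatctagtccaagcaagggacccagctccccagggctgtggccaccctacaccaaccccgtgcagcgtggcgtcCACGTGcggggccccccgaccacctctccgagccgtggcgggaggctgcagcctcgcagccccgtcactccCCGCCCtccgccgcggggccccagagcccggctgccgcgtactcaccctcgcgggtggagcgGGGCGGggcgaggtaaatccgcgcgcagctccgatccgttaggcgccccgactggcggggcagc
C230062I16Rik: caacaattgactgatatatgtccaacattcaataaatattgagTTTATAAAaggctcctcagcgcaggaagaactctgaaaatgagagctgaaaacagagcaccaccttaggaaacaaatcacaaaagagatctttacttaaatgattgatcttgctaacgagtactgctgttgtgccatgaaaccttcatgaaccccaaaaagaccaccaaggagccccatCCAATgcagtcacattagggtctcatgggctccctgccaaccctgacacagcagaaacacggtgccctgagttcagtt
6430550D23Rik: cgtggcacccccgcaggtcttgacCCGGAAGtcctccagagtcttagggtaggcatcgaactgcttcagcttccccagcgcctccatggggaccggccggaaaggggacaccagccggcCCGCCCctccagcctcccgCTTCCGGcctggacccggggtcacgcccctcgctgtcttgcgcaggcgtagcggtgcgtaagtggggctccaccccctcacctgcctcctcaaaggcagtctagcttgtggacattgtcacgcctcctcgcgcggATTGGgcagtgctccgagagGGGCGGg

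These starts were of different kinds. Those of 2900005J15Rik and 4930581F22Rik held 37 and 34 CpG dinucleotides in 300 bases, with GC boxes on both strands, and that of 6430550D23Rik held 24. Those of 1810019D21Rik and D030055H07Rik held 6 each, and that of C230062I16Rik, which has TATAAA on both strands at positions -205 and -207 from the start, held 3. Promoters were found for 227 of the 307 rows. The median was 21 CpG for the 39 noncoding rows that were entirely higher and had a promoter in the table, 17 for the other 84 noncoding rows, 22 for 104 coding rows and 7 for all 27025 promoters. The ETS core stood in 30.8%, 21.4% and 26.9% of these 3 sets of rows and in 9.12% of all promoters. The GC box stood in 56.4%, 54.8% and 57.7%, and in 35.9% of all. The cAMP response element stood in 0 of the 39, in 7.14% of the 84, in 3.85% of the coding rows and in 1.88% of all. All 27025 promoters were taken whatever their level in liver, whereas the RIKEN-named rows had 1 CPM or more. Shares over expressed genes alone were not computed, so a difference from all promoters cannot be laid to the RIKEN-named rows. A match to such letters is a description and not a site in use.

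Other noncoding rows that DESeq2 called were likewise higher. 4833418N02Rik had 2.24, 2.31 and 1.5 CPM in control and 6.45, 4.85 and 5.20 CPM in PB-MP, and B230206H07Rik had 1.59, 2.26 and 1.72 CPM and 3.85, 4.31 and 4.70 CPM. Both groups were again apart. 4933439C10Rik had 1.67, 1.72 and 0.827 CPM in control and 5.45, 3.03 and 8.0 CPM in PB-MP, the widest spread of this set. A930038B10Rik, listed as a lincRNA though its span overlaps another gene, had 1.66, 1.60 and 1.56 CPM in control and 4.61, 2.60 and 3.68 CPM in PB-MP. The antisense transcripts A530020G20Rik and A930007I19Rik had log2 fold changes of 1.97 ± 0.46 and 1.56 ± 0.37, the second with 0.453, 0.941 and 0.418 CPM in control and 1.90, 1.67 and 1.73 CPM in PB-MP.

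The noncoding rows on the lower side were few. C230062I16Rik had 9.07, 4.69 and 8.33 CPM in control and 3.97, 4.48 and 4.20 CPM in PB-MP. Its log2 fold change was -0.81 ± 0.28 at an edgeR adjusted p of 0.342. Its control replicate 2 lay close to the PB-MP libraries. 2310010J17Rik, at a bidirectional promoter, had 7.85, 6.60 and 7.28 CPM in control and 6.12, 4.73 and 5.27 CPM in PB-MP (-0.43 ± 0.20). The lowest log2 fold change of the class was that of B430212C06Rik, at -2.03 ± 0.90. It had 2.41, 0.446 and 2.74 CPM in control and 0.735, 0.0709 and 0.564 CPM in PB-MP, so that the groups overlapped through control replicate 2. The pseudogene 5830417I10Rik, chosen after its values were seen, followed no diet. It had no read in control replicate 1 or in PB-MP replicates 1 and 2, and 5.87, 5.93 and 6.83 CPM in control replicates 2 and 3 and PB-MP replicate 3.

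The most abundant noncoding rows, apart from 1810019D21Rik, had log2 fold changes between -0.44 and 0.36. 0610005C13Rik, a liver-enriched RNA listed as antisense, had 165, 157 and 201 CPM in control and 191, 187 and 289 CPM in PB-MP (log2 fold change 0.35 ± 0.22). The control library at 201 CPM lay above 2 of the PB-MP libraries. 1810058I24Rik, a lincRNA in GENCODE that RefSeq lists as coding and that is known to encode a small mitochondrial protein, had 94.9, 81.3 and 125 CPM in control and 74.3, 58.0 and 89.5 CPM in PB-MP (-0.44 ± 0.23). B630019A10Rik had 73.8, 73.7 and 94.5 CPM and 80.3, 73.2 and 62.0 CPM (-0.17 ± 0.17, and 0.05 with library size as the only scaling). B430119L08Rik had 60.9, 47.7 and 55.5 CPM in control and 63.0, 83.1 and 64.2 CPM in PB-MP (0.36 ± 0.18), without overlap. Per kilobase of annotated exon, mean unscaled levels were 56.1 CPM for 0610005C13Rik, 36.7 for 1810019D21Rik, 31.7 for B430119L08Rik, 31.1 for 1810058I24Rik and 9.04 for B630019A10Rik. By level, the noncoding median was 0.46 for the 80 rows at 1 to 2 CPM, 0.53 for the 64 rows at 2 to 5 CPM and 0.25 for the 37 rows at 5 CPM or more. The shares that were entirely higher were 32.5%, 37.5% and 29.7%.

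All types of long noncoding RNA with more than 10 rows had more rows above 0 than below. Of 59 processed transcripts, 51 lay above 0 at a median of 0.55, and 21 (35.6%) were entirely higher. Of 41 antisense transcripts 37 lay above 0 at a median of 0.37, with 16 (39.0%) entirely higher and 0 entirely lower. Of 42 lincRNAs 32 lay above 0 at a median of 0.30, with 13 (31.0%) entirely higher. The 16 rows at bidirectional promoters had a median of 0.06, with 12 above 0. The 6 TEC loci all lay above 0 at a median of 0.88, and the 9 pseudogenes had a median of 0.19 with 5 above 0. By exon number, the noncoding median was 0.33 for 26 rows with 1 annotated exon, 0.36 for 92 rows with 2 to 4 exons and 0.54 for 57 rows with 5 or more.

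Noncoding rows lay above their coding neighbours more often than below. A neighbour was a gene whose span overlapped that of the row or whose start lay within 1 kb in the divergent direction. There were 137 pairs of a noncoding row with a tested coding neighbour at 1 CPM or more, from 116 rows. The noncoding row had the higher log2 fold change in 108 of them. The median was 0.52 for the noncoding side and 0.06 for the coding side. In 53 pairs the noncoding row was entirely higher in PB-MP, in 15 the neighbour was, and in 4 both were. Across the pairs, the log2 fold changes of both sides had a Pearson correlation of 0.26 and a Spearman correlation of 0.14, given as a description, since the sides share libraries, and rows with more than 1 neighbour recur. The 90 pairs that overlap on opposite strands had medians of 0.54 and 0.06, and the 41 divergent pairs 0.46 and 0.04. Noncoding rows that overlap no annotated gene showed the difference as well. Of these 56 rows 45 lay above 0 at a median of 0.37, and 18 (32.1%) were entirely higher, against 42 (35.3%) of the 119 that overlap a gene.

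**Figure D5:**
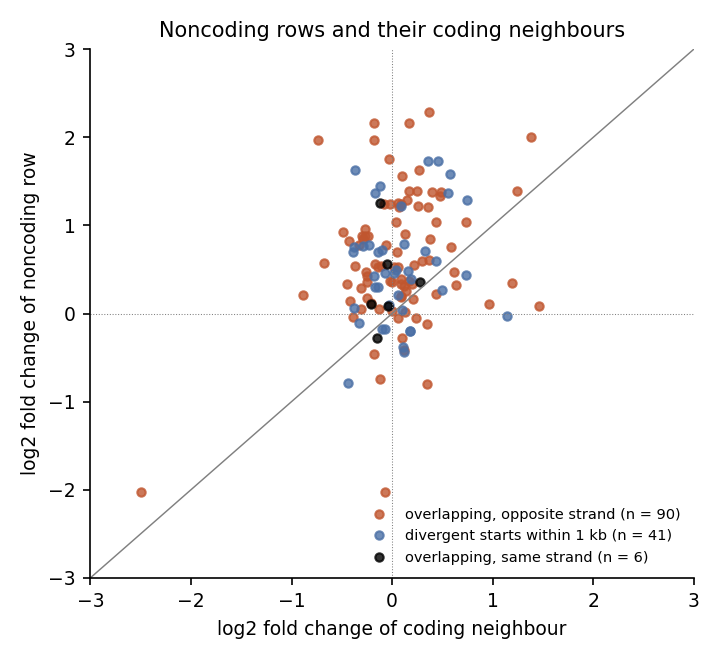
Log2 fold change of noncoding RIKEN-named rows (y axis) against that of their coding neighbours (x axis), 1 point per pair, coloured by how the genes lie to each other; the diagonal marks equal values. Of 137 pairs, 108 lie above the diagonal.

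In few pairs did both sides have an unadjusted p below 0.05. A330023F24Rik, a host transcript of microRNAs, had 1.11, 2.69 and 0.466 CPM in control and 6.28, 5.31 and 5.33 CPM in PB-MP (log2 fold change 2.0 ± 0.58), and overlapping Cd46, which encodes a complement regulator, was at 1.38 ± 0.44. E030042O20Rik, divergent from Nfe2l2, which encodes the oxidative stress regulator NRF2, had 0.535, 1.16 and 0.466 CPM in control and 2.45, 1.54 and 1.55 CPM in PB-MP (1.37 ± 0.43). Nfe2l2 stood at 41.0 ± 6.20 CPM in control and 60.2 ± 12.2 CPM in PB-MP (SD). Its log2 fold change was 0.55 ± 0.20 ( edgeR adjusted p = 0.361). 4632427E13Rik, divergent from Rab30, a small GTPase of the Golgi, had 0.617, 1.44 and 0.523 CPM and 2.19, 4.37 and 1.12 CPM (1.58 ± 0.60), with overlap between the groups, and Rab30 was at 0.57 ± 0.24. 6230400D17Rik was at 1.04 ± 0.41 and Fut11, a fucosyltransferase gene that it overlaps, at 0.74 ± 0.29. The coding row 4833420G17Rik was at 0.79 ± 0.20 and the predicted gene Gm9752 opposite to it at 1.74 ± 0.60. By edgeR none of these rows and neighbours passed the test across all rows, while DESeq2 passed A330023F24Rik (adjusted p = 0.011) and none of the others.

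Coding RIKEN-named rows were spread to both sides. On the higher side, 6430550D23Rik had 0.892, 0.594 and 0.533 CPM in control and 2.19, 1.65 and 1.71 CPM in PB-MP. Its log2 fold change was 1.46 ± 0.30 at an edgeR adjusted p of 0.207. 2410002F23Rik had 8.84, 8.86 and 8.07 CPM in control and 18.1, 13.4 and 16.5 CPM in PB-MP (0.90 ± 0.19), with the groups well apart. D930048N14Rik, coding in GENCODE and noncoding in RefSeq, had 5.08, 3.94 and 2.19 CPM and 12.6, 8.75 and 16.6 CPM (1.76 ± 0.38), the highest log2 fold change of the class. 9930104L06Rik, 4833420G17Rik and 4930503L19Rik were at 0.79 ± 0.20, 0.79 ± 0.20 and 1.55 ± 0.41. Among the named coding rows on this side, DESeq2 passed 5 and gave 4833420G17Rik an adjusted p of 0.0539.

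On the lower side, 4933434E20Rik had 5.34, 9.11 and 24.5 CPM in control and 2.24, 3.31 and 2.84 CPM in PB-MP. Its log2 fold change was -2.22 ± 0.55 at an edgeR adjusted p of 0.241. Its control libraries differed among themselves more than its PB-MP libraries did. It was the 1 RIKEN-named row that DESeq2 called lower. 2200002D01Rik had 8.92, 9.62 and 13.0 CPM in control and 4.69, 6.09 and 6.89 CPM in PB-MP (-0.84 ± 0.24). 9530068E07Rik, a transmembrane protein gene, had 121, 122 and 125 CPM in control and 86.1, 101 and 88.3 CPM in PB-MP, a small difference between groups that did not overlap (-0.42 ± 0.14, edgeR adjusted p = 0.327). The log2 fold changes of 1700017B05Rik, E130308A19Rik and 1190005I06Rik were -0.47 ± 0.19, -0.54 ± 0.25 and -0.52 ± 0.25.

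The 5 most abundant coding rows, 9530068E07Rik among them, lay below 0, though C130074G19Rik was at 0.14 with library size as the only scaling. 4931406C07Rik, which encodes an ester hydrolase, had 244, 225 and 268 CPM in control and 230, 164 and 156 CPM in PB-MP (log2 fold change -0.42 ± 0.20). 1600014C10Rik, the mouse form of a gene for a membrane protein of mitochondria and endoplasmic reticulum, had 178, 140 and 181 CPM and 134, 151 and 134 CPM (-0.25 ± 0.16). C130074G19Rik was at -0.08 ± 0.19 and 2610507B11Rik at -0.34 ± 0.29, and the groups overlapped in both. By level, the coding median was 0.44 for the 24 rows at 1 to 2 CPM, 0.15 for the 23 rows at 2 to 5 CPM and 0.00 for the 79 rows at 5 CPM or more, where 39 lay above 0 and 40 below.

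Other long noncoding RNAs stood on the same side as the RIKEN-named ones. Among rows at 1 CPM or more without it, 292 long noncoding RNAs had a median log2 fold change of 0.49, with 226 (77.4%) above 0 and 108 (37.0%) entirely higher. The 210 of these with a predicted-gene symbol (Gm and a number) had a median of 0.50. All 749 rows with such a symbol, of any class, had a median of -0.01, with 49.5% above 0. All 984 noncoding rows without the suffix, pseudogenes included, had a median of -0.08, with 44.2% above 0. Small nucleolar RNA host genes (Snhg) had a median of 0.66 over 12 rows, 11 of them above 0, and 26 noncoding opposite-strand transcripts one of 0.27. Pseudogenes lay on the other side, with a median of -0.21 over 483 rows, 137 (28.4%) above 0 and 103 (21.3%) entirely lower. The 11084 coding rows without the suffix had a median of -0.03, with 8.11% entirely higher and 8.61% entirely lower. Of 400 RIKEN-named rows under the limit of 1 CPM and with enough reads to be tested, 315 lay above 0 at a median of 0.56, and 105 (26.2%) were entirely higher. Whether any of these sets differ from one another was not tested.

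Some other measures differed between the diets as well, in part only without TMM scaling. A list of 10 long noncoding RNAs held mostly, but not only, nuclear ones. Of these 10, 8 were tested, all 8 lay above 0 at a median of 0.67, and 4 were entirely higher. Norad was at 0.04 with overlap, and Miat was at 0 in all libraries. The summed unscaled level of the list was 236.2 to 534.1 CPM in control and 574.4 to 768.5 CPM in PB-MP. With TMM scaling the sums overlapped between the groups, through control replicate 2. Neat1, the scaffold of nuclear paraspeckles, had 30.1, 60.1 and 6.30 CPM in control and 188, 80.8 and 92.5 CPM in PB-MP, and Malat1, a nuclear speckle RNA, had 165, 412 and 153 CPM and 365, 333 and 366 CPM, where control replicate 2 was the highest library. With TMM scaling, 2 of the 10 Kupffer cell and macrophage markers were entirely higher, and their sums overlapped between the groups. Unscaled, they summed to 124.4 to 174.9 CPM in control and 182.8 to 401.1 CPM in PB-MP, highest in PB-MP replicate 3. The log2 fold changes of 10 of 10 were above 0. Granulocyte markers summed to 1.229 to 1.963 and 3.412 to 6.034 CPM, 4 of the 5 tested being above 0, with Ly6g and Mpo at 0 in all libraries. Stellate, T and NK cell, and B and plasma cell markers had medians of -0.69, -0.40 and -0.82, with 1, 0 and 1 member above 0, and adipocyte markers one of -1.38, with 2 of 4 above 0 and Lep at 0 in all libraries, although their sum was 35.42 to 85.15 CPM in control and 76.21 to 95.48 CPM in PB-MP. Endothelial, cholangiocyte, red blood cell and pancreatic markers had medians of -0.01, -0.05, 0.24 and -0.22. In bulk liver, fewer cells of a type and less RNA per cell cannot be told apart. The part of these measures, of the mitochondrial share and of the number of rows detected in the difference of the noncoding rows was not tested.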

How the data were processed

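Poly(A)-selected liver RNA was sequenced from directional libraries, per the labels' protocols. GRCm39 and bcl2fastq are listed, per the submitters' processing notes, without roles. Which aligner, counter, annotation and strand setting were used is not given in the sources used here. Deposited values are raw counts without normalization, for 56674 rows named by symbol, once per sample and once for all 6 samples, with identical values. Names occur more than once for 939 rows (0.0308% of reads), of which the row with most reads kept its name.

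Rows were kept by filterByExpr (minimum count 10, minimum total 15), which left 17871, and tested with TMM scaling and the quasi-likelihood test of edgeR 4.0.16 in R 4.3.3, all 6 libraries, no covariate, at an adjusted p of 0.05. The SE is the log2 fold change divided by the square root of F. Counts of libraries of 1 group differed by a chi-square of at least 181 per degree of freedom, beyond counting error alone. No library was thus a repeat sequencing of another. Separate libraries of the same liver would also differ, so this cannot tell whether each library came from its own mouse. Alternatives were other scalings and filters, DESeq2 1.42.0, limma-voom (limma 3.58.1), a replicate block, robust estimation, leaving out each library, other level limits for the rows, and rows without overlap. The fit that drops both control replicate 2 and PB-MP replicate 3, the split by level and the rows under 1 CPM were added after the data were seen. The rows and lists were chosen with earlier results of these data known.

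Named rows were, per direction and without overlap, the 8 noncoding and 6 coding of smallest p, the 5 most abundant and the extreme log2 fold changes per class, rows at the level limit, 6 further rows called by DESeq2 or limma-voom, and pairs with a neighbour at an unadjusted p below 0.05. GENCODE M21 and RefSeq on GRCm38 gave classes, exon lengths and neighbours only (301 and 274 of the 307 rows matched, 2 matched neither). Where a row had several starts in the promoter table, the first listed was used. In counts simulated for this comparison (17314 genes after the filter), the test found 29 of 66 genes altered 4-fold (43.9%), 2 of 67 altered 2-fold and 0 of 67 altered 1.5-fold, and 7 of 38 calls were on unchanged genes.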

Additional observations from a re-analysis of the deposited data

How the results depend on the processing

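Over the alternatives run, the noncoding median and the number of noncoding rows above 0 stayed on the PB-MP side. With library size only, medians were 0.48 for all RIKEN-named rows, 0.65 for noncoding and 0.30 for coding rows, and 4 rows were entirely lower, while the median of all rows tested was 0.23. edgeR called 0 of all rows with all libraries (2161 at an unadjusted p below 0.05), 1 without control replicate 1, and 2 with control replicate 2 and PB-MP replicate 3 both left out, when 128 RIKEN-named rows were entirely higher and 70 entirely lower. DESeq2 called 512 of all rows and limma-voom 0. With 1 library left out, calls over all rows ran from 0 to 1, the coding median from -0.03 without PB-MP replicate 3 to 0.12 without PB-MP replicate 2, and the number of rows entirely lower from 12 to 38. With a limit of 2 CPM 11 of 203 rows were entirely lower, and with 5 CPM 10 of 116, at a median of 0.07 for all RIKEN-named rows.

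The unscaled share of reads of all RIKEN-named rows was higher in PB-MP by 0.0692 percentage points. With TMM scaling they summed to 3195 ± 154 CPM in control and 3386 ± 180 CPM in PB-MP (SD, n = 3 each). Those sums overlapped between the groups, with control replicate 3 at 3371 CPM and PB-MP replicate 2 at 3212 CPM. The difference in share was 0.0176 with DESeq2 size factors and 0.0270 with upper quartile scaling. For the 113 rows that overlap no gene, a smaller set, it was 0.0249. Of 771 log2 fold changes of the 43 named rows under alternatives, 5 turned sign. C130074G19Rik was at 0.14 with library size only, 0.01 without control replicate 3 and 0.04 without PB-MP replicate 3 (with each library left out, -0.22 to 0.04), at 0.02 with control replicate 2 and PB-MP replicate 3 both left out, and B630019A10Rik at 0.05 with library size only. The cause of these shifts was not tested. DESeq2 passed 21 named rows that edgeR did not.

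With the replicate number as a block, 220 of 307 rows lay above 0 and 55 were higher at an unadjusted p below 0.05, with 0 calls over all rows. Same-numbered libraries had correlations of -0.0869, 0.0935 and 0.0816 between their deviations, so the numbers were not taken as pairs. The Rn18s share of reads did run along with the number. It was 2.92%, 11.2% and 1.15% in control replicates 1, 2 and 3, and 3.61%, 9.42% and 0.707% in those of PB-MP.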
